A study of Homo sapiens with 6 samples.

Results

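The genes described here are long noncoding RNAs of 2 kinds: snoRNA host genes, whose spliced RNA is made from a precursor that carries small nucleolar RNAs (snoRNAs) in its introns, and abundant long noncoding RNAs of the nucleus or cytoplasm. They were taken by name from the annotated expression table: every gene whose symbol begins with SNHG and a digit, which gave 24 symbols, and 10 genes named one by one, GAS5, MALAT1, NEAT1, EPB41L4A-AS1, ZFAS1, MEG3, PVT1, TUG1, NORAD and OIP5-AS1. SNHG28 stands under 2 gene identifiers, so the 34 symbols made 35 of the 58735 genes in the table. The rule used names and no levels, but it was set with earlier results of these data known. Of the 35 genes, 30 had enough counts to be tested.

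The libraries were RNA-seq of CCRF-SB, a line labelled as B cell acute lymphoblastic leukaemia from peripheral blood. In 3 libraries, siANXA1, the cells had received a lentivirus made to silence ANXA1 (genotype given as ANXA1 down-regulated), and in the other 3, siControl, they had received an empty vector (genotype given as WT). Both groups were grown in RPMI-1640 with serum, puromycin is named for selecting the stable siANXA1 cells, and all 6 libraries were taken at day 5. Since the labels do not tell whether replicates came from independent cultures, a p-value here reflects only how far these libraries spread, which may be technical.

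Counts assigned to a gene lay between 21333951 in siANXA1 replicate 2 and 44148505 in siANXA1 replicate 1. ANXA1 itself was at 1606, 1723 and 1712 CPM (normalised counts relative to library size) in siANXA1 replicates 1 to 3, against 3696, 3696 and 3756 CPM in siControl (log2 fold change -1.14 ± 0.09 SE, edgeR adjusted p = 0.0571). For ANXA1 the adjusted p was 1.41e-17 with DESeq2 and 0.0197 with limma-voom. The largest component of variation did not sort the libraries by group. Principal component 1 of all tested genes held 40.9% of the variance and placed siANXA1 replicates 1 and 3 with siControl replicate 3 on one side, and siANXA1 replicate 2 with siControl replicates 1 and 2 on the other. Markers of the labelled cell type were nearly absent: the 12 B cell markers summed to 3.11 to 5.02 CPM in siANXA1 libraries and 3.11 to 6.68 CPM in siControl libraries, with IGHM and VPREB1 at 0 in all 6. The 6 T cell markers summed to 16.4 to 35.3 CPM in siANXA1 libraries and 12.9 to 39.8 CPM in siControl libraries, and the 6 myeloid markers to 34.8 to 40.8 CPM in siANXA1 libraries and 35.6 to 45.6 CPM in siControl libraries. The 12 erythroid markers summed to 6017, 4005 and 5166 CPM in siANXA1 replicates 1 to 3, against 763, 1436 and 1841 CPM in siControl, and their part in the results below was not tested.

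Most human snoRNAs are cut from introns. Box C/D snoRNAs guide 2′-O-methylation and box H/ACA snoRNAs guide pseudouridylation of ribosomal and other RNA, and a few act in cleavage of the ribosomal RNA precursor. The spliced exons of many hosts carry short reading frames, are drawn to ribosomes and are then degraded by nonsense-mediated decay, so that the level of the host RNA depends on its decay as well as its transcription. MALAT1 and NEAT1 behave differently: they stay in the nucleus, MALAT1 in nuclear speckles and NEAT1 as the scaffold of paraspeckles.

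A host is defined by the snoRNA in its intron, so 3 snoRNAs of each class are given from GENCODE release 29 on GRCh38. The box C/D members lie in SNHG1 (SNORD27, chr11:62855012-62855083, minus strand), SNHG5 (SNORD50B, chr6:85677589-85677658, minus strand) and ZFAS1 (SNORD12B, chr20:49280319-49280409, plus strand). Capitals mark a TGATGA match to box C near the start and a CTGA match to box D near the end.
SNORD27: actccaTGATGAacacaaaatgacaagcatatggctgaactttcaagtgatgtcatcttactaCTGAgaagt
SNORD50B: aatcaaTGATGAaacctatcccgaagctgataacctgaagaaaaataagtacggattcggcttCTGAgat
SNORD12B: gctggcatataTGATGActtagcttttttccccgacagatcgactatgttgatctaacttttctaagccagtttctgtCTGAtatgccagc
The box H/ACA members lie in SNHG3 (SNORA73B, chr1:28508559-28508762), EPB41L4A-AS1 (SNORA13, chr5:112161485-112161617) and SNHG8 (SNORA24, chr4:118279190-118279320), all on the plus strand. Capitals mark the ACA match near the end.
SNORA73B: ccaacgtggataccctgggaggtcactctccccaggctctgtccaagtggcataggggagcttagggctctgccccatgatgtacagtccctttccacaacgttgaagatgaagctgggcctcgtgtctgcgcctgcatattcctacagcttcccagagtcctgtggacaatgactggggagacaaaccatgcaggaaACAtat
SNORA13: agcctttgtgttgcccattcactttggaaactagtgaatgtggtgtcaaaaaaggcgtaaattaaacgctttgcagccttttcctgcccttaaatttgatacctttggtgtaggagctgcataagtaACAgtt
SNORA24: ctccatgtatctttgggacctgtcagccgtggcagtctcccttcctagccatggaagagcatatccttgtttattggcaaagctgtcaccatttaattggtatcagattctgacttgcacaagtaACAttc
In that annotation 26 of the 35 genes enclose at least 1 snoRNA or small Cajal body RNA on their own strand. These make 136 distinct gene identifiers in all, of which 84 belong to the imprinted SNHG14 locus. None is annotated inside GAS5, although GAS5 is known as a host of box C/D snoRNAs.

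Many host genes of this kind start with a C followed by a run of pyrimidines, the 5′ terminal oligopyrimidine start that they share with ribosomal protein genes. RefSeq promoters (GRCh38.p14) were found for 28 of the 34 symbols, and 6 of the 28 (21.4%) had a C at the annotated start followed by at least 4 further C or T letters, against 4.07% of all 35116 promoters. They were SNHG4, SNHG5, SNHG12, SNHG18, SNHG19 and ZFAS1. Only a tract that began at the annotated RefSeq base was scored, so another start could change the list. The RefSeq window of GAS5 (chr1:173868996-173869085, minus strand) lay outside its GENCODE span, and GAS5 was scored without a tract. SNHG1 had a run of 3 letters and was scored without one too. SNHG18 had the tract but a count of 0 in all 6 libraries. The windows below run from 40 bases before the start to base 50 of the transcript for 4 of them, with the tract from the start in capitals: SNHG5 (chr6:85678684-85678773, minus strand), ZFAS1 (chr20:49278602-49278691, plus strand), SNHG19 (chr16:2155309-2155398, minus strand) and SNHG4 (chr5:139274061-139274150, plus strand).
SNHG5: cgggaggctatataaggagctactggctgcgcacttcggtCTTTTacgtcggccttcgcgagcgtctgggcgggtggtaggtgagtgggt
ZFAS1: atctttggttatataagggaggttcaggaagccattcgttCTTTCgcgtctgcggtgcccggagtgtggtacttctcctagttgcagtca
SNHG19: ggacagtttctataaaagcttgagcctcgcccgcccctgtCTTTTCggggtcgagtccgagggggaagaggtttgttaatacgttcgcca
SNHG4: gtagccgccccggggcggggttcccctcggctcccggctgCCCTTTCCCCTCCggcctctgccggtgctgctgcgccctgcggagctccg
Other motifs were searched on both strands of the full promoter, from 250 bases before to 50 after the start. There CACGTG, the E-box bound by MYC and other factors, was in 4 of the 28 promoters (14.3%) against 7.26% of all, CCGGAAG, bound by ETS factors, in 3 (10.7%) against 10.3%, and TGATGNAA, bound by ATF4 with CEBP partners, in 0 against 3.62%. The CACGTG promoters were those of NORAD, OIP5-AS1, SNHG7 and TUG1, none of which had the tract.

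Among the 30 tested genes, 8 averaged 100 CPM or more over the 6 libraries, 13 lay between 10 and 100, 7 between 1 and 10, and 2 under 1 CPM. NORAD and MALAT1 took the most counts, but they are long. Per base of transcript, as TPM computed from the counts, the order was led by snoRNA hosts: SNHG5 averaged 754, GAS5 499, SNHG1 397, SNHG8 269 and SNHG6 256 TPM. NORAD stood at 150, MALAT1 at 93.6 and NEAT1 at 6.73 TPM on the same per-length scale. The neighbours SNHG8 and SNHG6 did not differ beyond their spread: SNHG8 ranged over 171 to 354 and SNHG6 over 177 to 333 TPM across the 6 libraries.

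**Figure D1:**
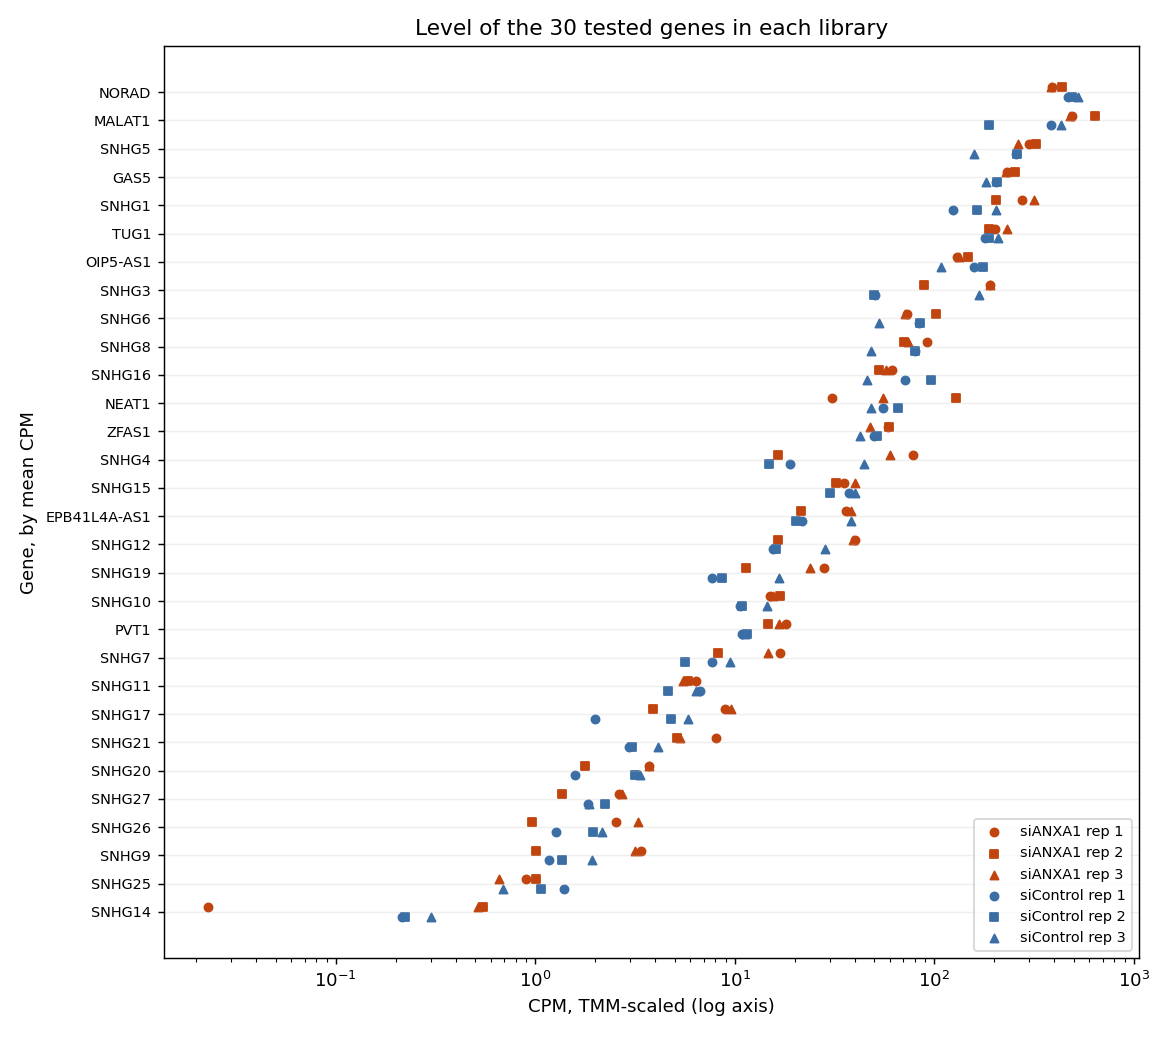
Level of each tested gene in each library, in CPM on a log axis, with one point per library and siANXA1 above siControl within each gene. Points of both groups intermix for most genes, and a gap between groups can be seen at PVT1, with 14.7 to 18.2 CPM in siANXA1 libraries and 10.9 to 11.5 CPM in siControl libraries.

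Together the 35 genes took 0.279%, 0.293% and 0.278% of gene counts in siANXA1 replicates 1 to 3, against 0.236%, 0.228% and 0.236% in siControl, so the groups did not overlap. The SNHG genes alone held 0.122%, 0.0991% and 0.119% in siANXA1 libraries, against 0.0798%, 0.0856% and 0.0823% in siControl libraries, again without overlap. The 10 genes named one by one held 0.156%, 0.194% and 0.160% in siANXA1 libraries, against 0.156%, 0.142% and 0.154% in siControl libraries, and there siANXA1 replicate 1 lay within the siControl range. Mitochondrial ribosomal RNA moved with the groups as well, at 0.808%, 1.09% and 0.787% of gene counts in siANXA1 libraries, against 2.10%, 2.15% and 1.15% in siControl libraries, and its part in the difference was not tested. In bulk RNA a smaller share cannot be told apart from fewer cells that make the RNA.

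The comparison of siANXA1 with siControl sets libraries with lower ANXA1 against libraries with an empty vector. Puromycin is named for the siANXA1 cells, and the erythroid markers also differed between the groups. An effect of lower ANXA1 cannot be told apart from either here. No gene of the set passed an edgeR adjusted p under 0.05, where 2 of 17947 tested genes (0.0111%) did. DESeq2 called 0 of the 30 where it called 1.67% of genes with an adjusted p, and limma-voom called 0 where it called 0.0167%. The fold change was above 0 in 25 of the 30 genes and below 0 in 5, with a median log2 fold change of 0.33, while over all tested genes 9070 were above 0 and 8877 below, with a median of 0.0066. Groups did not overlap in 8 of the 30, against 14.6% of all genes: 7 were higher in siANXA1 (7.41% of all genes) and 1, NORAD, was lower (7.24% of all genes). The 7 were MALAT1, SNHG5, GAS5, SNHG1, SNHG10, PVT1 and SNHG21. At an unadjusted edgeR p under 0.05 there were 3 higher, SNHG1, PVT1 and SNHG21 (3.40% of all genes), and 1 lower, NORAD (4.52% of all genes).

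**Figure D2:**
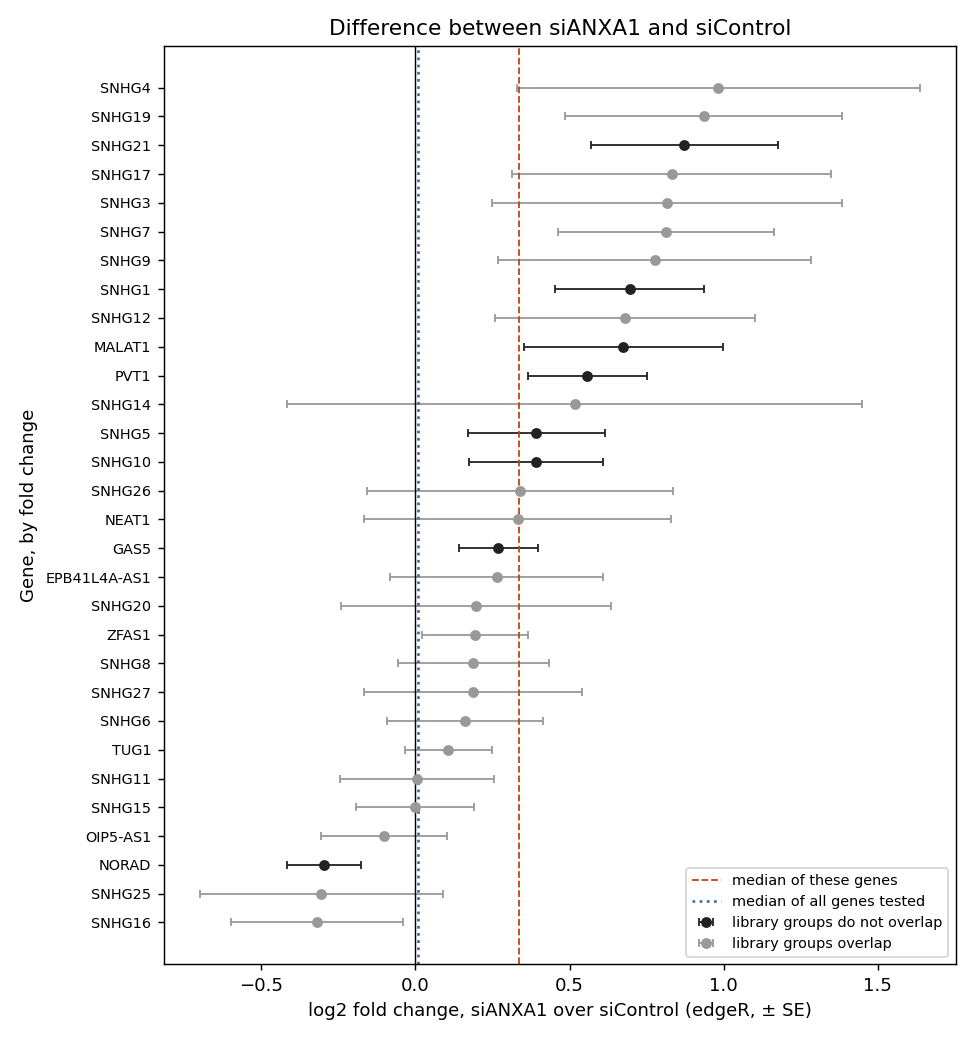
Log2 fold change of siANXA1 over siControl for the 30 tested genes, with SE bars from edgeR. Most points lie right of 0, the median is 0.33, and the widest bars belong to genes whose level varied most between libraries of one group, such as SNHG4 at 0.98 ± 0.65 and SNHG3 at 0.82 ± 0.57.

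The side of component 1 moved with many of these genes. Across the 30 genes, the median log2 deviation from the siControl mean was 0.45, 0.054 and 0.50 in siANXA1 replicates 1 to 3, against -0.088, 0.0056 and 0.23 in siControl, while the median of all genes stayed between -0.013 and 0.019. In 14 of the 30, siANXA1 replicate 2 was the lowest of its group and siControl replicate 3 the highest of its own, against 26.3% of all genes. These were EPB41L4A-AS1, SNHG1, SNHG3, SNHG4, SNHG7, SNHG9, SNHG12, SNHG15, SNHG17, SNHG19, SNHG20, SNHG21, SNHG26 and TUG1. The opposite arrangement held in 7, GAS5, NEAT1, OIP5-AS1, SNHG5, SNHG6, SNHG25 and ZFAS1, against 27.2% of all genes.

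**Figure D3:**
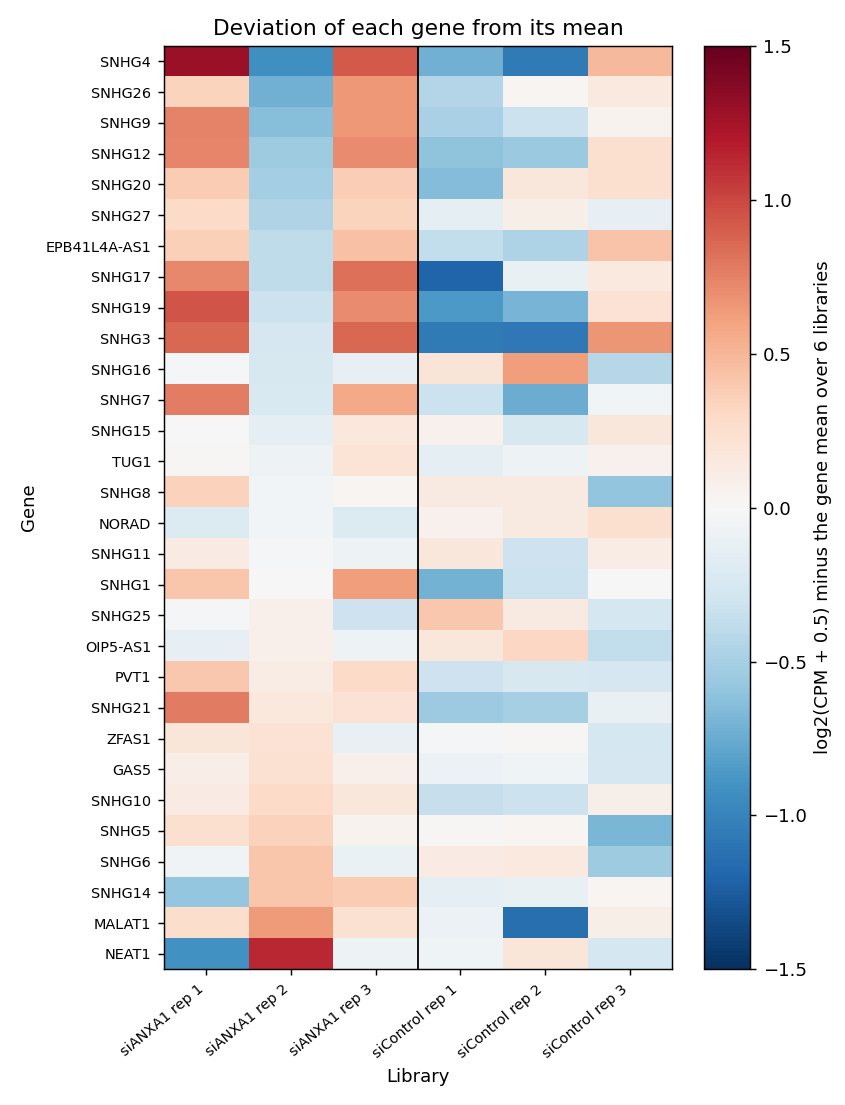
Log2 deviation of each tested gene from its own mean over all 6 libraries, with one column per library (siANXA1 left, siControl right). Genes are ordered by siANXA1 replicate 2. SNHG4, near the top, is high in siANXA1 replicates 1 and 3 and siControl replicate 3, while MALAT1 and NEAT1 at the bottom are highest in siANXA1 replicate 2.

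With that side as a covariate, the fold change was above 0 in 22 of the 30 genes, with a median of 0.30, and 0 genes of the set passed the adjusted threshold where 5 genes (0.0279%) did. At an unadjusted p under 0.05 the same fit held 8 higher, GAS5, PVT1, SNHG1, SNHG3, SNHG5, SNHG6, SNHG19 and SNHG21 (7.04% of all genes), and 1 lower, NORAD (6.76%). Within sides, 15 of the 30 were higher in siANXA1 on both, against 28.2% of all genes, and 2 were lower on both, NORAD and SNHG15, against 27.8%. Each side rests on a lone library of a group, siControl replicate 3 on one and siANXA1 replicate 2 on the other, which all 30 genes share. Without siANXA1 replicate 2 and siControl replicate 3, group and side cannot be told apart. That comparison called 22.0% of 18549 genes, among them 9 of the set as higher (11.0% of all genes) and 1, NORAD, as lower (11.1%). The 9 were EPB41L4A-AS1, PVT1, SNHG1, SNHG3, SNHG4, SNHG7, SNHG9, SNHG12 and SNHG19. Both alternatives were chosen after the data were seen.

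SNHG1, on chromosome 11 from 62851988 to 62855914, minus strand, encloses 7 snoRNA genes, SNORD27 among those printed above. It was at 274, 205 and 316 CPM in siANXA1 libraries, against 125, 163 and 204 CPM in siControl libraries. Every siANXA1 library lay above every siControl library, although siANXA1 replicate 2 and siControl replicate 3 differed by a small margin. Its log2 fold change was 0.69 ± 0.24 (SE), with an edgeR p of 0.0266 and an adjusted p of 0.625.

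SNHG5, the host of SNORD50B, on chromosome 6 from 85660950 to 85678748, minus strand, was at 300, 323 and 263 CPM in siANXA1 libraries, against 257, 260 and 158 CPM in siControl libraries. The groups touched closely at siANXA1 replicate 3 and siControl replicate 2, and siControl replicate 3 was the low library. The log2 fold change was 0.39 ± 0.22 (SE; edgeR adjusted p = 0.663), and 0.58 ± 0.14 with the side as a covariate (edgeR adjusted p = 0.264). Without siControl replicate 3 it was 0.19.

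GAS5, on chromosome 1 from 173863900 to 173868882, minus strand, was first known as a transcript that accumulates in growth-arrested cells. It was at 232, 254 and 229 CPM in siANXA1 libraries, against 204, 207 and 182 CPM in siControl libraries. The libraries of each group lay close together and the groups did not overlap, and the difference was 0.27 ± 0.13 on the log2 scale (SE, edgeR adjusted p = 0.644). With the most abundant GAS5 transcript alone it turned to -0.98. ZFAS1, on chromosome 20 from 49278178 to 49295738, plus strand, host of SNORD12 family members, read 58.3, 59.6 and 47.6 CPM in siANXA1 libraries, against 50.2, 51.9 and 42.7 CPM in siControl libraries. Its groups overlapped through siANXA1 replicate 3 (log2 fold change 0.19 ± 0.17 SE, edgeR adjusted p = 0.774), and the most abundant transcript alone gave -0.058.

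Some of the widest ranges were in SNHG3, SNHG4 and SNHG19. SNHG3, host of the SNORA73 pair, on chromosome 1 from 28505980 to 28510892, plus strand, was at 191, 88.6 and 191 CPM in siANXA1 libraries, against 50.3, 49.6 and 167 CPM in siControl libraries. The siControl replicate 3 value lay almost at the level of siANXA1 replicates 1 and 3, so the groups overlapped. Its log2 fold change was 0.82 ± 0.57 (SE; edgeR adjusted p = 0.716), 0.51 ± 0.15 with the side as a covariate (edgeR adjusted p = 0.304), and 1.93 without siANXA1 replicate 2 and siControl replicate 3 (edgeR adjusted p = 0.00774). Leaving out single libraries moved it between 0.52, without siControl replicate 2, and 1.65, without siControl replicate 3.

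SNHG4, on chromosome 5 from 139274102 to 139284899, plus strand, encloses 2 snoRNA genes. It read 78.3, 16.4 and 60.0 CPM in siANXA1 libraries, against 19.0, 14.9 and 44.6 CPM in siControl libraries. Here siANXA1 replicate 2 fell among the lower siControl libraries (log2 fold change 0.98 ± 0.65 SE, edgeR adjusted p = 0.706). Without siANXA1 replicate 1 it was 0.55, and without siControl replicate 3 it was 1.60. SNHG12, host of both snoRNA classes, read 40.1, 16.4 and 39.4 CPM in siANXA1 libraries, against 15.5, 16 and 28.3 CPM in siControl libraries, and SNHG19 read 28, 11.4 and 23.8 CPM, against 7.71, 8.68 and 16.7 CPM. Both were low in siANXA1 replicate 2 and highest of siControl in replicate 3, and both were described after their values were seen.

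SNHG6, on chromosome 8, and SNHG8, on chromosome 4 from 118278709 to 118279823, plus strand, host 1 snoRNA each. SNHG6 read 73.4, 102 and 71.1 CPM in siANXA1 libraries, against 83.4, 84.6 and 52.6 CPM in siControl libraries. SNHG8 read 92.4, 70.3 and 73.8 CPM in siANXA1 libraries, against 79.6, 80.0 and 48.0 CPM in siControl libraries. In both genes siControl replicate 3 was lowest and the other libraries intermixed, with log2 fold changes of 0.16 ± 0.25 and 0.19 ± 0.25 (SE; edgeR adjusted p = 0.854 and 0.825). Without siControl replicate 3 these turned to -0.037 and -0.023.

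SNHG16, on chromosome 17 from 76557766 to 76565348, plus strand, read 61.4, 52.7 and 57.0 CPM in siANXA1 libraries, against 71.2, 96.4 and 46.0 CPM in siControl libraries. The siControl libraries spanned the whole siANXA1 range (log2 fold change -0.32 ± 0.28 SE, edgeR adjusted p = 0.769). Without siControl replicate 2 it was -0.050, and without siControl replicate 3 it was -0.56. SNHG15, on chromosome 7 from 44983023 to 44986961, minus strand, read 35.4, 32.2 and 39.9 CPM in siANXA1 libraries, against 37.3, 30.1 and 40.2 CPM in siControl libraries. Its groups covered the same range, with means of 35.8 ± 3.91 CPM in siANXA1 and 35.9 ± 5.21 CPM in siControl (SD, n = 3 each), and the sign of the difference turned with the setting.

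EPB41L4A-AS1, host of SNORA13 on chromosome 5 from 112160526 to 112164276, plus strand, read 36.2, 21.5 and 38.3 CPM in siANXA1 libraries, against 21.6, 20.2 and 38.2 CPM in siControl libraries. These values split by the side of component 1 rather than by group. The log2 fold change was 0.26 ± 0.35 (SE; edgeR adjusted p = 0.826), 0.00032 ± 0.11 with the side as a covariate (edgeR adjusted p = 0.999), and 0.82 without siANXA1 replicate 2 and siControl replicate 3 (edgeR adjusted p = 0.0218).

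SNHG10, on chromosome 14 from 95532297 to 95534872, minus strand, read 15, 16.9 and 15.5 CPM in siANXA1 libraries, against 10.7, 10.9 and 14.6 CPM in siControl libraries. The groups did not overlap, with siControl replicate 3 close below siANXA1 replicate 1 (log2 fold change 0.39 ± 0.22 SE, edgeR adjusted p = 0.663). SNHG7 and SNHG21 were picked after their values were seen. SNHG7 read 16.9, 8.27 and 14.7 CPM in siANXA1 libraries, against 7.68, 5.61 and 9.43 CPM in siControl libraries, and overlapped through siANXA1 replicate 2. SNHG21 read 8.08, 5.12 and 5.32 CPM in siANXA1 libraries, against 2.94, 3.05 and 4.13 CPM in siControl libraries. Its groups stood apart (log2 fold change 0.87 ± 0.30 SE, edgeR adjusted p = 0.625).

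The remaining tested genes were at low levels, SNHG11 near 5.9 CPM in both groups and SNHG9, SNHG14, SNHG17, SNHG20, SNHG25, SNHG26 and SNHG27 below 10 CPM in every library, and their groups overlapped. Untested were MEG3, SNHG22, SNHG18 and both SNHG28 genes. MEG3, an imprinted RNA linked to growth restraint, was at 0, 0 and 0.0819 CPM in siANXA1 libraries, against 0.0479, 0.198 and 0 CPM in siControl libraries. SNHG22 was at 0.115, 0 and 0 CPM in siANXA1 libraries, against 0.335, 0.198 and 0.150 CPM in siControl libraries. SNHG18 and 1 SNHG28 gene had a count of 0 in all 6 libraries.

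Among the RNAs that act without a snoRNA, MALAT1, on chromosome 11 from 65497688 to 65506516, plus strand, was at 492, 637 and 479 CPM in siANXA1 libraries, against 386, 187 and 434 CPM in siControl libraries. All siANXA1 libraries lay above all siControl libraries, and siControl replicate 2 was far below the other siControl libraries. The log2 fold change was 0.67 ± 0.32 (SE; edgeR adjusted p = 0.644) and fell to 0.38 without siControl replicate 2. Of its counts, 99.2% were given to a transcript of 8708 bases.

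NEAT1, on chromosome 11 from 65422774 to 65445540, plus strand, read 30.8, 128 and 55.3 CPM in siANXA1 libraries, against 55.7, 66.0 and 48.3 CPM in siControl libraries. Its spread came from siANXA1 replicate 2, the highest library, and siANXA1 replicate 1, the lowest. The log2 fold change was 0.33 ± 0.50 with its SE (edgeR adjusted p = 0.846), and it turned to -0.39 without siANXA1 replicate 2. The 22743-base transcript, the long form on which paraspeckles are built, held 95.4% of its counts, and because the short form lies within it the table's split between them is an estimate.

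NORAD, a cytoplasmic RNA known for its part in keeping chromosome number stable, lies on chromosome 20 from 36045622 to 36050960, minus strand. It was at 389, 435 and 386 CPM in siANXA1 libraries, against 468, 491 and 527 CPM in siControl libraries. All siANXA1 libraries were below all siControl libraries and the spread within each group was small. The means were 403 ± 27.7 CPM in siANXA1 and 495 ± 29.6 CPM in siControl (SD, n = 3 each), a log2 fold change of -0.30 ± 0.12 (SE) with an edgeR adjusted p of 0.627. With the side as a covariate it was -0.29 ± 0.09 (edgeR adjusted p = 0.304).

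PVT1, the neighbour of MYC on chromosome 8 from 127794533 to 128101253, plus strand, read 18.2, 14.7 and 16.7 CPM in siANXA1 libraries, against 10.9, 11.5 and 11.3 CPM in siControl libraries. The siControl libraries lay very close together and below each siANXA1 library. The log2 fold change was 0.56 ± 0.19 (SE), with an adjusted p of 0.62 from edgeR and 0.0802 from DESeq2. Of its counts, 62.5% were given to a single 113-base transcript annotated as misc_RNA, which raised its per-length level to 149 TPM.

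TUG1 and OIP5-AS1 varied little between groups. TUG1, on chromosome 22 from 30969245 to 30979395, plus strand, read 202, 189 and 230 CPM in siANXA1 libraries, against 180, 189 and 209 CPM in siControl libraries. OIP5-AS1, on chromosome 15 from 41283990 to 41309737, plus strand, whose RNA is known to bind the stabilizing protein HuR, read 129, 148 and 133 CPM in siANXA1 libraries, against 158, 175 and 109 CPM in siControl libraries. Both pairs of groups overlapped (log2 fold changes 0.11 ± 0.14 and -0.10 ± 0.20 SE, edgeR adjusted p = 0.826 and 0.885), and OIP5-AS1 turned to 0.054 with the side as a covariate.

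Grouped by the snoRNA class inside them, the 9 tested hosts of box H/ACA snoRNAs alone summed to 469, 248 and 436 CPM in siANXA1 libraries, against 225, 211 and 362 CPM in siControl libraries, with 8 fold changes above 0 and a median log2 fold change of 0.78. The siControl replicate 3 sum was above that of siANXA1 replicate 2, so the groups of the sum overlapped. SNHG3 and SNHG4 weigh most in this split, while SNHG8 was lowest in siControl replicate 3 and SNHG11 showed no split. Single genes whose groups did not overlap were 0 of these 9, 2 of the 8 hosts of box C/D snoRNAs alone and 6 of the 11 genes with neither class, against 14.6% of all genes. The 8 hosts of box C/D snoRNAs alone summed to 798, 756 and 783 CPM in siANXA1 libraries, against 596, 667 and 523 CPM in siControl libraries, with 7 fold changes above 0, a median of 0.37 and no overlap of the sums. The 11 genes with neither class, GAS5 among them by annotation, summed to 1523, 1833 and 1557 CPM in siANXA1 libraries, against 1480, 1346 and 1544 CPM in siControl libraries, with a median of 0.27. Classes were set by the names SNORD and SNORA alone, so SNHG10, SNHG20 and SNHG21, which enclose small Cajal body RNAs, stand among the 11. SNHG10, SNHG21 and GAS5 are among the 6 genes there whose groups did not overlap. The 6 of 11 therefore does not set hosts against genes that host nothing. A difference between the classes was not tested.

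The table also lists the snoRNA genes themselves, but TruSeq RNA libraries are not made to recover RNAs so short. Outside SNHG14, 52 distinct snoRNA gene identifiers lie in these hosts. Some snoRNAs, SNORA16A and SNORA17B among them, stand under 2 identifiers at nearly the same position, which may divide their counts. Of the 52, 16 held the same count of 1 or 2 in all 6 libraries, SNORD50B at 1, and 12 had 10 or more in every library. The 84 in SNHG14 held 1 count in all. SNORA73B in SNHG3 had 425, 52 and 385 counts in siANXA1 libraries, against 65, 61 and 299 counts in siControl libraries. SNORA24 in SNHG8 had 117, 20 and 95 counts in siANXA1 libraries, against 14, 16 and 62 counts in siControl libraries, and SNORD27 in SNHG1 had 308, 56 and 220 counts, against 106, 95 and 177 counts. All 3 were lowest of siANXA1 in replicate 2, which has the fewest counts in total, and highest of siControl in replicate 3. Such reads can come from unspliced host RNA as well as from the snoRNA, and the 2 cannot be told apart here.

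The share of a host's counts given to transcripts annotated as retained introns followed the side in several hosts, SNHG1, SNHG3 and GAS5 among them. It did not do so in every host. For SNHG1 this share was 90.1%, 75.5% and 90.7% in siANXA1 libraries, against 78.2%, 60.1% and 81.6% in siControl libraries. For SNHG3 it was 69.2%, 57.4% and 74.1% in siANXA1 libraries, against 52.0%, 48.0% and 69.2% in siControl libraries. For GAS5 it was 65.5%, 46.7% and 66.3% in siANXA1 libraries, against 33.0%, 36.1% and 67.5% in siControl libraries. In all 3 hosts siANXA1 replicates 1 and 3 and siControl replicate 3 held higher shares than the other libraries of their own group, and the groups overlapped. SNHG5 and SNHG16 split by side too, at far lower shares. SNHG5 held 5.27%, 2.80% and 4.79% in siANXA1 libraries, against 1.71%, 1.81% and 8.18% in siControl libraries. SNHG16 held 3.14%, 2.51% and 4.02% in siANXA1 libraries, against 1.11%, 0.978% and 2.86% in siControl libraries. SNHG12 and SNHG17 did not follow the side. SNHG12 held 49.97%, 53.2% and 57.6% in siANXA1 libraries, against 52.0%, 46.8% and 56.3% in siControl libraries, so siANXA1 replicate 1 lay below replicate 2. SNHG17, at low counts, held 65.6%, 52.9% and 85.8% in siANXA1 libraries, against 78.3%, 75.1% and 76.9% in siControl libraries. Over all genes the share was 7.23%, 7.12% and 6.58% in siANXA1 libraries, against 6.77%, 6.46% and 6.41% in siControl libraries.

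**Figure D4:**
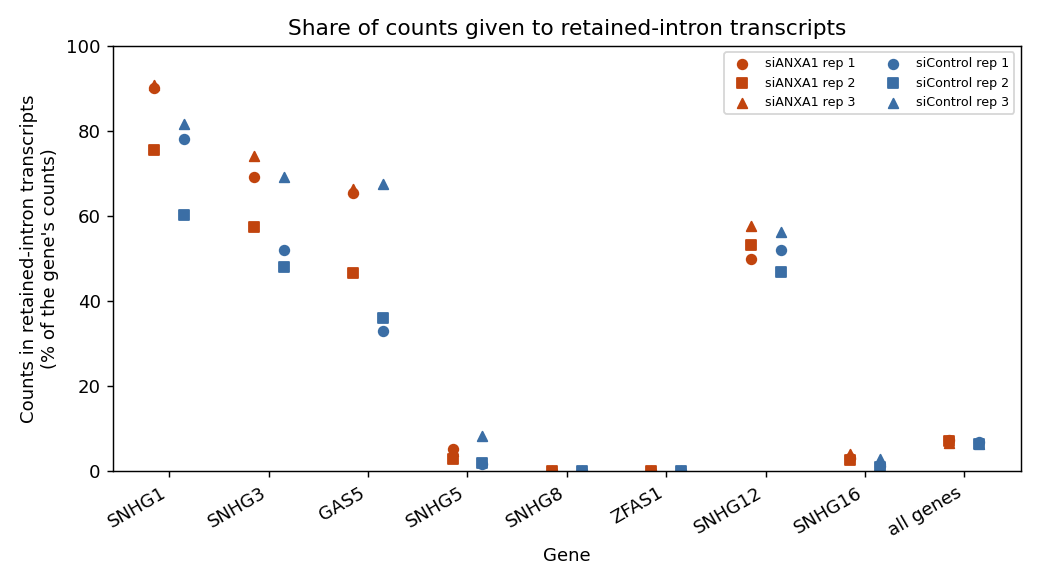
Share of a gene's counts given to transcripts annotated as retained introns, in percent, per library with siANXA1 left of siControl. SNHG1, SNHG3, GAS5 and SNHG12 lie far above the share over all genes, which stays between 6.41% and 7.23%. In each of them siControl replicate 3 is the highest siControl library. SNHG12 lies between 46.8% and 57.6%. SNHG8 and ZFAS1 have 0 transcripts annotated as retained introns, so their points at 0 follow from the annotation.

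In GAS5 the retained-intron forms and the other transcripts moved in opposite directions across libraries. The retained-intron forms summed to 152, 119 and 152 CPM in siANXA1 libraries, against 67.4, 74.9 and 123 CPM in siControl libraries, and siControl replicate 3 again lay above siANXA1 replicate 2. The other GAS5 transcripts summed to 79.9, 136 and 77.1 CPM in siANXA1 libraries, against 137, 132 and 59.1 CPM in siControl libraries. One spliced form of 632 bases, ENST00000450589, took 0.0298%, 20.6% and 2.8% of GAS5 counts in siANXA1 libraries, against 27.5%, 28.6% and 0.0824% in siControl libraries. It was nearly absent from siANXA1 replicates 1 and 3 and siControl replicate 3.

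Of 382 annotated transcripts of the 35 genes, 180 were tested with the same model, and none passed an edgeR adjusted p under 0.05, as 1 of 58702 transcripts (0.00170%) did. At an unadjusted p under 0.05 there were 12, against 4.69% of all transcripts, and groups did not overlap in 29, against 12.6%, so neither count stood far from the background. Among the 12, chosen after their values were seen, the retained-intron transcript ENST00000558457 of OIP5-AS1 was at 2.12, 2.69 and 1.67 CPM in siANXA1 libraries, against 0.311, 0.198 and 0.270 CPM in siControl libraries. It stood apart between groups at a level far below that of the whole gene (log2 fold change 2.95, edgeR adjusted p = 0.426). The main SNHG5 transcript, ENST00000414002 of 430 bases, took 12.5%, 55.6% and 43.3% of SNHG5 counts in siANXA1 libraries, against 41.1%, 36.2% and 32.6% in siControl libraries, with siANXA1 replicate 1 standing apart. With transcripts that overlap this closely, the division between them is the estimate of the authors' tool.

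Several genes overlap or neighbour a coding gene. In GENCODE 29, 19 of the 35 share exon bases with a gene on the other strand and 10 with a gene on the same strand, and 8 start within 1000 bases of a coding gene that runs the other way. No source used here gives the strand setting, so reads of such pairs may have been exchanged. SLC3A2, an amino acid transporter subunit that starts 188 bases from SNHG1, read 175, 259 and 177 CPM in siANXA1 libraries, against 339, 367 and 199 CPM in siControl libraries. Within siANXA1 it was highest in replicate 2, where SNHG1 was lowest, and within siControl it was lowest in replicate 3, where SNHG1 was highest. RCC1, which shares 242 exon bases with SNHG3 on the same strand, read 206, 117 and 113 CPM in siANXA1 libraries, against 109, 63.3 and 198 CPM in siControl libraries. ZNFX1, divergent to ZFAS1 and overlapping it by 249 exon bases, read 43.0, 21.6 and 41.6 CPM in siANXA1 libraries, against 21.2, 22.1 and 42.8 CPM in siControl libraries, a split by side that ZFAS1 did not have. SNHG4 shares 626 exon bases with MATR3, so its level is uncertain.

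Proteins that act on these RNAs were read from lists in the same test. Of the 4 proteins of the box C/D particle and the 4 of the H/ACA particle, all 8 had fold changes above 0, where 9070 of 17947 genes did, and none passed the adjusted edgeR threshold (0.0111% of all genes). Groups did not overlap in 1 of the 4 C/D proteins, FBL, and in 0 of the 4 H/ACA proteins, against 14.6% of all genes. FBL, the methyltransferase of the C/D particle, was at 500 ± 31.3 CPM in siANXA1 and 443 ± 20.2 CPM in siControl (SD, n = 3 each). Its libraries read 466, 527 and 508 against 426, 437 and 465 CPM, so siANXA1 replicate 1 and siControl replicate 3 nearly met. NOP56, a C/D core protein whose own gene hosts snoRNAs, read 224, 134 and 227 CPM in siANXA1 libraries, against 89.9, 94.1 and 214 CPM in siControl libraries, the pattern of SNHG3. Of 10 assembly factors, 8 were above 0, and groups did not overlap in 1, against 14.6% of all genes. NOLC1, the Cajal body and nucleolar chaperone Nopp140, was at 505, 368 and 414 CPM in siANXA1 libraries, against 211, 252 and 331 CPM in siControl libraries, without overlap (log2 fold change 0.69 ± 0.21 SE, edgeR adjusted p = 0.605).

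Of 17 factors of nonsense-mediated decay, 13 were above 0 and 4 below, against 9070 above and 8877 below over all genes, and none passed the test that 0.0111% of all genes passed. UPF1, the central helicase, read 281, 227 and 281 CPM in siANXA1 libraries, against 205, 186 and 248 CPM in siControl libraries. CASC3, an exon junction complex protein, read 16.5, 55.1 and 27.8 CPM in siANXA1 libraries, against 16.3, 14.3 and 8.98 CPM in siControl libraries, so that siANXA1 replicate 1 and siControl replicate 1 nearly met (log2 fold change 1.33 ± 0.48 SE, edgeR adjusted p = 0.627).

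Of 11 paraspeckle proteins, 7 were above 0 and 4 below in edgeR, and none passed its test. Groups did not overlap in 2 of the 11, SFPQ and NONO, against 14.6% of all genes. DESeq2 called 1 of the 11, where it called 1.67% of genes with an adjusted p. SFPQ, which binds NEAT1 and is needed for paraspeckles, read 43.5, 130 and 50.6 CPM in siANXA1 libraries, against 473, 413 and 138 CPM in siControl libraries. All siANXA1 libraries were below all siControl libraries, with siANXA1 replicate 2 close to siControl replicate 3 (log2 fold change -2.20 ± 0.61 SE, edgeR adjusted p = 0.605, DESeq2 adjusted p = 0.0283). NONO, its partner, read 316, 291 and 283 CPM in siANXA1 libraries, against 365, 369 and 350 CPM in siControl libraries, also without overlap (log2 fold change -0.29 ± 0.11 SE, edgeR adjusted p = 0.627). Of 8 nuclear speckle proteins, 6 were above 0. SRSF3, a splicing factor with the highest mean count of the 8 over all 6 libraries but not within siControl, read 643, 258 and 459 CPM in siANXA1 libraries, against 287, 206 and 379 CPM in siControl libraries.

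Among listed coding genes that host snoRNAs, mainly genes of the ribosome and of translation, 5 of 21 were above 0 and 16 below. Their median log2 fold change was -0.10 and none passed the test. Groups did not overlap in 2 of the 21, against 14.6% of all genes. RPL3 read 1749, 2013 and 1561 CPM in siANXA1 libraries, against 2800, 2647 and 1627 CPM in siControl libraries. RPS3 was an exception, at 1175, 1528 and 1016 CPM in siANXA1 libraries, against 802, 744 and 940 CPM in siControl libraries, without overlap (log2 fold change 0.58 ± 0.18 SE, edgeR adjusted p = 0.605). The 12 listed targets of ATF4, a transcription factor induced when amino acids run short, summed to 943, 3686 and 937 CPM in siANXA1 libraries, against 5651, 5430 and 1062 CPM in siControl libraries. They split by the side of component 1, low where SNHG3, SNHG4 and the retained-intron forms of GAS5 were high. Their part in the results for the noncoding hosts was not tested.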

How the data were processed

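The authors deposited an estimated count for each transcript as a whole number without normalization, beside the transcript length, which is in bases as deposited. That these are estimates was read from the values. Aligner, counter and strandedness: not given in the sources used here. Per the submitters' processing notes the build is mm10, a mouse build, but the identifiers are human and all 35 genes have their GENCODE 29 span on GRCh38. Rows without a gene (16014, holding 16.9% to 17.7% of a library's counts) were left out. Counts were summed per gene and tested with edgeR 4.0.16 (filterByExpr, TMM, robust quasi-likelihood, group as the only term, Benjamini-Hochberg over 17947 genes, adjusted p under 0.05, two-sided) in R 4.3.3. CPM use TMM, and an SE is the log2 fold change over the root of the F statistic. DESeq2 1.42.0 and limma-voom 3.58.1 were alternatives, with other scalings, filters, the most abundant transcript, the replicate number as a block and libraries left out. Shares of counts carry counting error besides the spread shown. Per-length levels are TPM computed from counts per base over all transcripts.

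The genes and lists were chosen with earlier results of these data known. Named in full were the 10 genes named one by one, the 8 SNHG genes with the highest mean, and up to 4 further genes per direction with the lowest p among those at 5 CPM or more whose groups did not overlap (SNHG10); of other lists, members past the threshold or otherwise those with the lowest p and the highest level. One list is not reported here. The fit was tested on simulated data. Figures used matplotlib 3.10.9.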

Additional observations from a re-analysis of the deposited data

How the results depend on the processing

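With 3 libraries a group and 2 libraries that lie on the other side of component 1, the spread within groups limits which differences can pass. 0 genes of the set passed under the other settings (other scalings, filters, DESeq2, limma-voom, most abundant transcript, replicate block, each library left out), and 10 did without siANXA1 replicate 2 and siControl replicate 3 together. Their median log2 fold change stayed between 0.25 and 0.49 in every setting (0.30 to 0.43 with single libraries left out). The count over all genes, 2, became 258 with DESeq2, 1 with the most abundant transcript, 0 with the replicate block, 0 to 7 with single libraries left out, 5 with the side of component 1 as a covariate and 4085 without siANXA1 replicate 2 and siControl replicate 3; the cause was not tested. With the replicate block no gene of the set was called and the median was 0.25. Whether the numbers pair the libraries was not clear: deviations of same-numbered libraries correlated at -0.12, 0.27 and 0.26. Libraries with other numbers on the same side of component 1 came close to the higher values. They were 0.24 for siANXA1 replicate 2 with siControl replicate 1, and 0.22 for siANXA1 replicate 1 with siControl replicate 3. No transcript of the set passed with or without the filter, the block or any 1 library. Of 342 recomputed fold changes, 311 kept direction and call, 19 turned and 12 passed the threshold that had not, 6 of them ANXA1 and 6 genes of the set, those 6 all without siANXA1 replicate 2 and siControl replicate 3. With the most abundant transcript, GAS5 turned to -0.98, ZFAS1 to -0.058 and SNHG8 to -0.075. SNHG15, near 0, turned to 0.00105 with library size alone, 0.0155 with limma-voom and 0.00281 with the block, and ranged from -0.12 to 0.083 with single libraries left out. Other ranges that crossed 0 with single libraries left out were -0.39 to 0.69 for NEAT1, -0.037 to 0.26 for SNHG6, -0.023 to 0.29 for SNHG8 and -0.29 to 0.027 for OIP5-AS1. OIP5-AS1 turned to 0.054 with the covariate. Without siANXA1 replicate 2 and siControl replicate 3, NEAT1 turned to -0.51, SNHG6 to -0.22 and SNHG15 to 0.15, while OIP5-AS1 stood at -0.35. At an unadjusted edgeR p under 0.05, 4 of the set became 0 without siANXA1 replicate 1, siControl replicate 1 or siControl replicate 2. They became 1 without siANXA1 replicate 3, and 9 without siANXA1 replicate 2 or without siControl replicate 3. The count over all genes moved as well, from 1423 of 17947 in the main fit. Without siANXA1 replicate 1, siControl replicate 1 or siControl replicate 2 it was 906 of 18640, 721 of 18516 and 774 of 18507. It was 905 of 18903 without siANXA1 replicate 3, 2127 of 18794 without siANXA1 replicate 2 and 3701 of 18935 without siControl replicate 3.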
